A study of Mus musculus with 2 samples.

Results

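The core circadian clock genes were followed in total RNA from the adrenal gland of B6CASTF1/J males, hybrids bred from C57BL/6J and CAST/EiJ parents, at an age of 36 days and with no treatment named. The members are 10 genes matched by symbol, Arntl, Clock, Npas2, Per1, Per2, Per3, Cry1, Cry2, Nr1d1 and Nr1d2, out of 55536 annotated genes, and each symbol matched 1 gene. The series holds 1 group of 2 libraries, called replicate 1 and replicate 2 after their labels, so no conditions are contrasted and every ratio sets 1 library against the other. The labels conflict on whether these libraries come from 1 animal or 2. The hour at which each gland was taken is not given in the sources used here, and reads of both parental alleles were counted together.

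The mammalian clock is a feedback loop of transcription. BMAL1, encoded by Arntl, pairs with CLOCK or its relative NPAS2 and binds E-box sequences in the promoters of the Per, Cry and Nr1d genes. PER and CRY proteins then return to the nucleus and block that pair, while the nuclear receptors REV-ERB alpha and REV-ERB beta, encoded by Nr1d1 and Nr1d2, repress Arntl. In the adrenal cortex this loop is known to gate the daily rhythm of glucocorticoid release. Per1 is also known to respond quickly to cAMP signalling and to glucocorticoids in many tissues.

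The promoters of Per1, Per3 and Cry1 are shown. Per1 had the largest ratio toward replicate 1 and Per3 the largest toward replicate 2, and Cry1 differed least. Each line gives the 250 bases before a RefSeq start site on GRCm38.p6, 5′ to 3′ on the strand of the gene, with motif matches in capitals. Per1 has entries at chr11:69098699-69098948 and chr11:69099902-69100151 (plus strand), Per3 at chr4:151044666-151044915 (minus strand) and Cry1 at chr10:85185055-85185304 (minus strand).
Per1 upstream start: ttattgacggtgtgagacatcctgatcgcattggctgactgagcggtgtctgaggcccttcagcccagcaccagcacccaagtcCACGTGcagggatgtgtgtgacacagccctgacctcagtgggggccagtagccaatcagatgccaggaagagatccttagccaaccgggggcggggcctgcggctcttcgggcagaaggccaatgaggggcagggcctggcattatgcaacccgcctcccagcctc
Per1 downstream start: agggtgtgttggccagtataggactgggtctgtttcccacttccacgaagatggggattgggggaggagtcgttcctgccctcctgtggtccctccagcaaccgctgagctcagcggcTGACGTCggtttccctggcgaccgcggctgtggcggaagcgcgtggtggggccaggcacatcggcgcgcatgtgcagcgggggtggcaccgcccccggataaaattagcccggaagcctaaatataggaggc
Per3: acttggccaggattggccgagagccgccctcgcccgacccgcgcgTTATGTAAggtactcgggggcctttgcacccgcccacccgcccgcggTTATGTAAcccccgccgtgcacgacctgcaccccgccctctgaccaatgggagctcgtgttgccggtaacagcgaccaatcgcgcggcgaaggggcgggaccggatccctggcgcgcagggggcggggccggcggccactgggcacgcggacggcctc
Cry1: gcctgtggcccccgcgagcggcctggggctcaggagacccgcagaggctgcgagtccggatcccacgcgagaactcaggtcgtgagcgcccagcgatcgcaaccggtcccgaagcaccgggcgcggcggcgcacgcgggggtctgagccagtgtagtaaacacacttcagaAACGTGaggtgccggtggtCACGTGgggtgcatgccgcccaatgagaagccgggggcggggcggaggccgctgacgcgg
The upstream Per1 window holds the E-box CACGTG, and the downstream one holds TGACGTC, a core of 7 bases that the full cAMP response element TGACGTCA contains. Per3 holds the D-box TTATGTAA, which bZIP factors such as DBP and NFIL3 are known to bind, 205 and 158 bases before its start. Cry1 holds CACGTG 60 bases before its start and the E-box-like CACGTT, in reverse complement, 79 bases before it.

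Of the 10 members, 9, all but Per2, had at least 1 such window. These 13 windows were searched on both strands, beside 32817 windows of all genes. CACGTG lay in windows of Per1 and Cry1 and in 6.02% of all windows, and CACGTT in those of Cry1, Cry2 and Nr1d1 and in 3.85% of all. TGACGTC lay in a window of Per1 and in 2.78% of all, and the full TGACGTCA in none of the 13 and in 1.55% of all. The D-box (TTATGTAA or TTACGTAA) lay in the window of Per3 and in 0.929% of all. Neither the ROR and REV-ERB element RORE, in 0.35% of all windows, nor the palindromic glucocorticoid response element GRE, in 0.387%, matched any of the 13. A match describes the letters of these windows only.

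The gene tables held 35511291 and 30169338 expected counts on genes in replicates 1 and 2, and all 10 members passed the filter of a mean of at least 1 CPM (counts scaled to library size). Marker lists set the tissue. The 9 adrenal cortex markers summed to 17370 and 9382 TPM in replicates 1 and 2, and the 8 medulla markers to 1646 and 1870 TPM. TPM is abundance per transcript length, brought to an equal total for both libraries. Replicate 2 stood apart in its RNA of other organs. The 10 pancreas markers summed to 18.4 and 7466 TPM in replicates 1 and 2, with Pnlip, Cpa1, Ins1, Ins2, Gcg and Ptf1a at 0 counts in replicate 1 and none at 0 in replicate 2. The 6 liver markers summed to 15.0 and 101 TPM. The 7SL genes Rn7s1 and Rn7s2 took 32.5% and 48.9% of TPM, so a gene of equal share among coding RNA has a lower deposited TPM in replicate 2.

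All members were expressed, at mean levels from 1.08 TPM for Npas2 to 33.1 TPM for Nr1d1. The REV-ERB genes were high in both libraries, and Per1 and Per2 were high in replicate 1 alone. Mean levels followed the order Nr1d1, Per1, Nr1d2, Per2, Clock, Cry2, Arntl, Per3, Cry1, Npas2. The libraries of every neighbouring pair in that order overlapped except Cry1 and Npas2, so the other steps do not exceed the spread between the 2 libraries. The second transcript file, with its own TPM scale, gave means from 2.10 for Npas2 to 64.3 for Nr1d1, and its only change of order put Nr1d2, at 38.2, above Per1, at 31.2. Within each library taken alone, Clock stood above Cry2, Cry2 above Arntl and Cry1 above Npas2 both times, while Per1 took the first place in replicate 1 and the fifth in replicate 2. In bulk tissue, fewer cells of a type and less RNA per cell cannot be told apart.

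**Figure D1:**
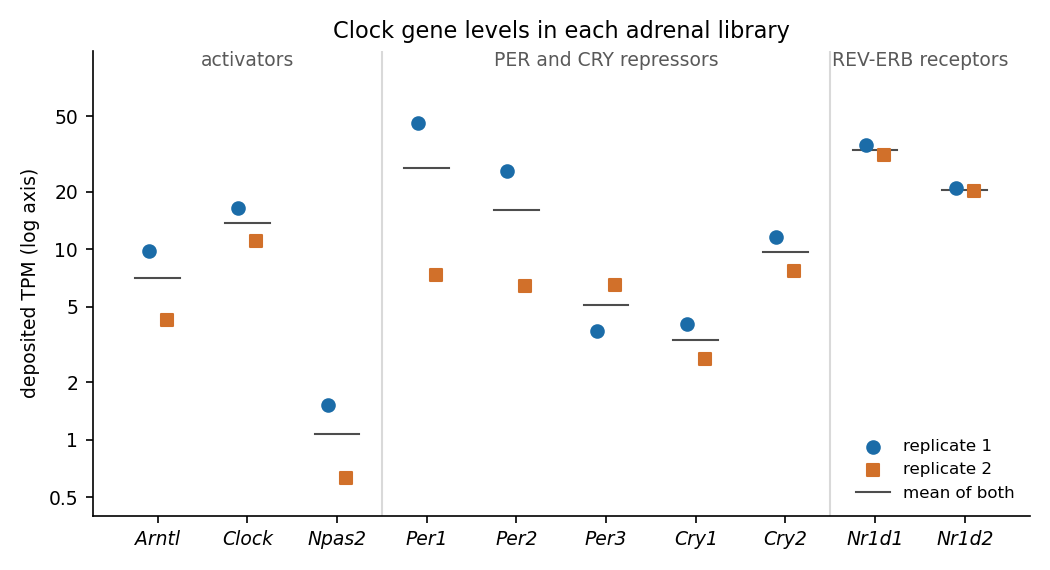
Deposited TPM of each clock gene on a log axis in replicate 1 (circles) and replicate 2 (squares), with the mean of both as a line. Per1 stands at 46.1 and 7.34 TPM and Per2 at 25.6 and 6.45, while Per3 is the 1 member with the higher TPM in replicate 2.

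Among the activators, Clock, the bHLH-PAS partner of BMAL1 (ENSMUSG00000029238.11, mm10 chromosome 5, 76209868 to 76304792, minus strand), was the highest, at 16.6 and 11.0 TPM in replicates 1 and 2 (13.8 ± 3.90, mean ± SD, n = 2). Arntl itself (ENSMUSG00000055116.8, chromosome 7, 113207465 to 113314126) was at 9.82 and 4.24 TPM (7.03 ± 3.95). Npas2, which can stand in for CLOCK (ENSMUSG00000026077.15, chromosome 1, 39193731 to 39363236), was at 1.52 and 0.63 TPM (1.08 ± 0.629). Replicate 1 was the higher library for all 3 activators. Arntl and Clock held 948 and 453, and 4226 and 2878 expected counts, against only 195 and 69 for Npas2, whose ratio is therefore the least precise of the members.

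Among the repressors, Per1 (ENSMUSG00000020893.17, chromosome 11, 69095217 to 69109960) was at 46.1 and 7.34 TPM (26.7 ± 27.4), from 4908 and 872 expected counts. Per2 (ENSMUSG00000055866.9, chromosome 1, 91415982 to 91459324) was at 25.6 and 6.45 TPM (16.0 ± 13.5), from 5182 and 1437 counts. Both PER genes were far higher in replicate 1, with an SD about as large as the mean. Per3, the PER gene least needed for rhythms in mice (ENSMUSG00000028957.12, chromosome 4, 151003652 to 151044665), went the other way at 3.72 and 6.51 TPM (5.12 ± 1.97), from 598 and 1176 counts. The cryptochromes, which bind the CLOCK pair directly, differed less between the libraries than the PER genes did. Cry2 (ENSMUSG00000068742.11, chromosome 2, 92403646 to 92434043) was at 11.6 and 7.72 TPM (9.66 ± 2.74), and Cry1 (ENSMUSG00000020038.10, chromosome 10, 85131700 to 85185064) at 4.03 and 2.67 TPM (3.35 ± 0.962).

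The REV-ERB receptors had the steadiest deposited TPM of all members. Nr1d1 (ENSMUSG00000020889.11, chromosome 11, 98767932 to 98775333) was at 35.2 and 31.0 TPM (33.1 ± 2.91), from 3135 and 3065 counts. Nr1d2 (ENSMUSG00000021775.11, chromosome 14, 18204054 to 18239127) was at 20.8 and 20.2 TPM (20.5 ± 0.438), from 2753 and 2586 counts. On a TPM scale set by nuclear protein-coding genes only, both were higher in replicate 2, Nr1d1 at 113 and 134 and Nr1d2 at 67.1 and 87.0. They were not the steadiest members on that scale. Clock, at 53.3 and 47.5, Cry2, at 37.4 and 33.2, and Cry1, at 13.0 and 11.5, lay closer in proportion. On that scale Per1 was at 148 and 31.6, Per2 at 82.4 and 27.8, and Per3 at 12.0 and 28.0, so the 3 PER genes stood close together in replicate 2 and far apart in replicate 1.

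Counts of the libraries were compared after TMM scaling, as the log2 ratio of replicate 2 over replicate 1, with an exact 95% interval that covers counting error only. A gene was called when its ratio reached 2-fold. Of the 10 members 4 were called, Per1, Per2 and Npas2 higher in replicate 1 and Per3 higher in replicate 2, and 6 were not. Of 14780 tested genes 6.85% were called, 1.74% with the higher level in replicate 1 and 5.12% with the higher level in replicate 2. The median log2 ratio was -0.31 over the members and 0.01 over all tested genes. With 1 library on each side there is no replicate check and no p-value, and the ratios describe these libraries only.

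Per1 had the largest ratio, 4.61-fold higher in replicate 1 (4.29 to 4.96), and 0.277% of all tested genes lay as far or farther in that direction. Per2 was 2.95-fold higher in replicate 1 (2.79 to 3.13), with 0.656% of genes as far, and Npas2 2.30-fold (1.75 to 3.09), with 1.18% as far. The interval of Npas2 reaches below 2-fold, so its call is not settled at this depth. Per3 was 2.40-fold higher in replicate 2 (2.17 to 2.65), where 3.34% of genes lay as far in its direction. Per3 thus differed from its paralogs in direction while lying among a larger group of genes that were higher in replicate 2.

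Of the members under 2-fold, Arntl came closest, at 1.71-fold higher in replicate 1 (1.53 to 1.92), and at a 1.5-fold threshold it would have been the fifth call. Cry2 was 1.28-fold (1.18 to 1.39) and Clock 1.20-fold (1.15 to 1.26) higher in replicate 1. Nr1d1, at 1.19-fold (1.14 to 1.26), and Nr1d2, at 1.15-fold (1.09 to 1.21), were slightly higher in replicate 2 by TMM scaling and lower there by the spike-ins. Cry1 had a ratio of 1.08-fold toward replicate 1 (0.931 to 1.26), the 1 member whose interval includes no difference. Ratios of this size are common here, since 27.1% of tested genes lay as far as Nr1d1 in its direction and 18.1% as far as Clock in its own.

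**Figure D2:**
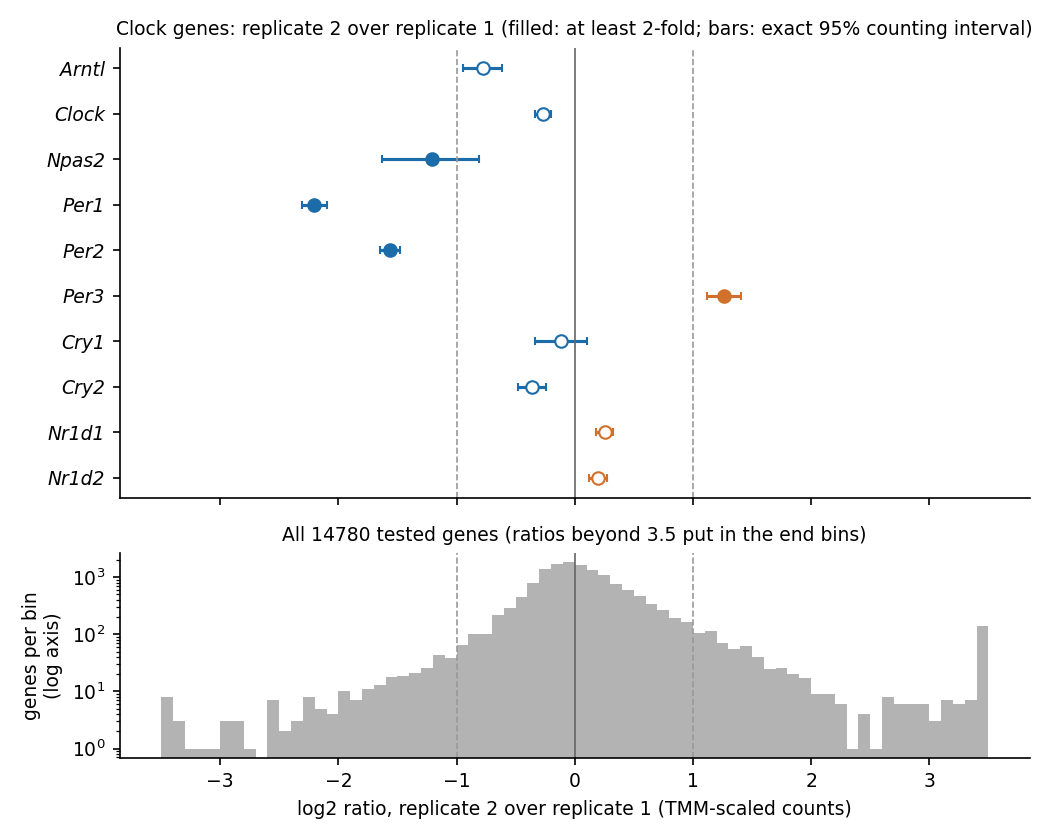
Upper panel, log2 ratio of TMM-scaled counts, replicate 2 over replicate 1, for each clock gene with its exact 95% counting interval; filled points reach 2-fold. Lower panel, the same ratio for all 14780 tested genes on a log count axis. Per1, Per2 and Npas2 lie left of the lower 2-fold line and Per3 right of the upper one.

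Scaled by the ERCC spike-ins, control RNAs added to each sample, every log2 ratio shifts by -0.89, so that any smaller lead of replicate 2 turns into a lead of replicate 1. Then Per3 stood at 0.37, no longer 2-fold, Nr1d1 and Nr1d2 turned to -0.64 and -0.70, and the count of called members was 7, all higher in replicate 1. The order of the members among themselves is the same under either scaling.

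Ratios between members within a library need no scaling. Of the ratios computed, Per1 to Per3 and Per2 to Per3 changed most between the libraries. Per1 to Per2, at 1.80 and 1.14, changed far less. Per1 stood 12.4 times above Per3 in replicate 1 and 1.13 times in replicate 2 (mean 6.75 ± 7.96), and Per2 stood 6.88 and 0.991 times the level of Per3 (3.93 ± 4.16). Which PER gene is higher in replicate 2 is not settled: there the second transcript file gave 0.746 for Per1 to Per3 and 0.937 for Per2 to Per3, and the posterior mean TPM, another estimate deposited in the gene tables, gave 1.14 and 1.13. Both ratios were lower than in replicate 1 in all 3 sets of values, by between 6.29 and 11.6 times. The Cry1 to Cry2 ratio was 0.347 and 0.346, the closest of the ratios computed. The Nr1d1 to Nr1d2 ratio, at 1.69 and 1.54, also stayed near its value. In the second transcript file these were 0.352 and 0.394 for the CRY genes and 1.92 and 1.53 for the REV-ERB genes. All transcript classes of a gene are counted together in these ratios. Paralogs of the CRY and REV-ERB pairs therefore kept their proportions more closely between the libraries than those of the PER family did.

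Against the activators the pattern was split. Arntl stood at 0.593 of Clock in replicate 1 and 0.384 in replicate 2 (0.489 ± 0.148). The summed PER genes were 7.67 and 4.79 times Arntl (6.23 ± 2.04), whereas the summed REV-ERB genes were 5.70 and 12.1 times Arntl (8.90 ± 4.52). Replicate 1 thus held more summed PER RNA per Arntl and replicate 2 more summed REV-ERB RNA per Arntl. Within the PER sum, Per3 went the other way, at 3.72 and 6.51 TPM against 9.82 and 4.24 for Arntl. Clock stood 10.9 and 17.5 times above Npas2 (14.2 ± 4.69), a ratio that rests on the 69 counts of Npas2 in replicate 2. The second transcript file gave 8.30 and 27.0 for it.

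The level of Per1 depends on how its reads were split among transcripts. In the first transcript file, Per1-201, the full-length transcript of 23 exons, took 56.9% and 56.2% of the gene's TPM in replicates 1 and 2. Per1-204, a fragment of 496 bases whose start lies at the downstream promoter entry printed above, took 34.9% and 33.3% on 226 and 37.8 counts. The second transcript file gave Per1-204 0 in both libraries and Per1-201 78.9% and 81.2%. Without Per1-204, an alternative chosen after seeing the data, Per1 stood at 30.0 and 4.89 TPM in the first file. The Per1 to Per2 ratio was accordingly 1.80 and 1.14 in the gene table, but 1.20 and 0.796 in the second file, so which of the pair is higher in replicate 2 depends on the file.

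Per1-202, which starts upstream of the first promoter entry, took 7.93% and 10.5% of Per1 TPM in the first file. Per2 RNA lay entirely in Per2-201 in both files and libraries. The difference between the libraries thus did not come with a change of the leading Per1 or Per2 transcript. Arntl-201 led Arntl with 71.4% and 74.5%, and Cry1-201 led Cry1 with 96.0% and 100%. Nr1d1-201 led Nr1d1 with 94.9% and 95.9%.

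Clock was split among long coding transcripts that differ at their ends. Clock-205 took 36.0% and 38.3% of TPM and Clock-201 took 39.8% and 25.9% in the first file. The second file gave Clock-201 the larger part in both libraries, 56.3% and 41.2%, against 21.9% and 23.1% for Clock-205. In both files Clock-201 had the lower share in replicate 2. The share of Npas2-201 was 86.8% and 65.1% in the first file and 67.6% and 100% in the second, where Npas2-203, a fragment of 484 bases with 2.75 and 3.36 counts in the first file, made the difference.

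Transcripts not annotated as protein-coding, chiefly retained-intron models, held a sizeable part of some members in this total RNA. Per3 had the most, 51.5% and 54.0% of its TPM in the first file and in the second its single coding transcript held 68.0% and 57.5%. Nr1d2 had 22.6% and 38.0%, Clock 15.4% and 25.3%, and Cry2 1.64% and 15.0% in the first file. For these 4 members the share was larger in replicate 2 in both files. For Arntl, at 9.99% and 8.96% in the first file, and Nr1d1, at 5.06% and 4.09%, it was smaller there in both files. The Cry2 part was annotated as processed transcripts, with no retained-intron model. Counting retained-intron transcripts alone, which 5 members have, the share was larger in replicate 2 for 3 of these in the first file and 4 in the second. Of all 7653 tested protein-coding genes with a retained-intron transcript, 70.0% had a larger retained-intron share in replicate 2 in the first file, with medians of 8.77% and 11.9%.

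**Figure D3:**
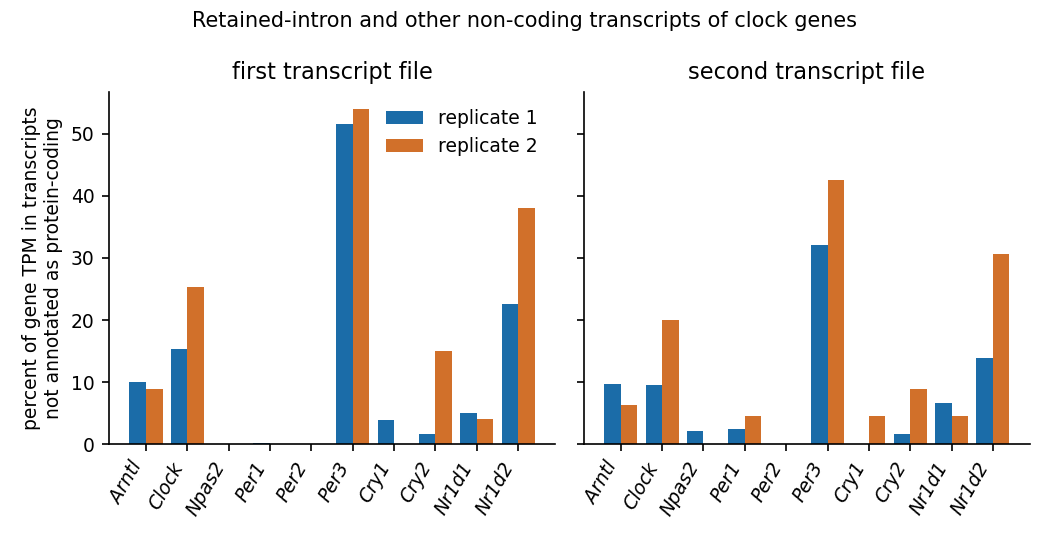
Percent of each clock gene's TPM in transcripts not annotated as protein-coding, in replicate 1 (blue bars) and replicate 2 (orange bars), by transcript file. Per3, Nr1d2, Clock and Cry2 have the taller bar in replicate 2 in both files. Arntl and Nr1d1 have the taller bar in replicate 1 in both, and Per2 has none.

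Split by class in the first file, the coding part of Per3 was 2.22-fold higher in replicate 2 (1.96 to 2.53) and its retained-intron part 3.38-fold (2.72 to 4.22). For Nr1d2 the coding part was 1.07-fold higher in replicate 2 (1.01 to 1.13, lower by the spike-ins) and the retained-intron part 2.09-fold (1.76 to 2.49). In the second file these were 1.05-fold (0.993 to 1.11), an interval that includes no difference, and 2.69-fold (2.17 to 3.35). The coding part of Clock was 1.25-fold higher in replicate 1 in the first file (1.19 to 1.31). Its retained-intron part was 1.28-fold higher in replicate 2 there by TMM scaling (1.05 to 1.59), a lead that the spike-in scaling turns. The second file gave 1.67-fold (1.31 to 2.16) for that retained-intron part. The retained-intron share of Clock TPM, which needs no scaling, was 13.2% in replicate 1 and 19.3% in replicate 2 in the first file. The 2 remaining Cry2 transcripts held 13.5 and 51.1 counts, too few for a close value at 4.49-fold (2.43 to 8.70). These intervals leave out the uncertainty of dividing reads between transcripts.

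Of the members, 9 had whole-number counts in both libraries (within 0.01), as when no read is divided between annotated genes. Nr1d2 alone had fractional counts. Where genes overlap, a whole count cannot show which of them a read came from. Nr1d1 overlaps Thra, the thyroid hormone receptor alpha gene on the opposite strand, over 1075 bases, and the libraries were directional. Thra had 1529 and 1514 counts, a log2 ratio of 0.27. The annotated span of Camta1 covers Per3 on the same strand over 41014 bases, with 270 and 302 counts, a log2 ratio of 0.45 against 1.26 for Per3. Clock overlaps the pseudogene Ube2n-ps1 on the same strand over 459 bases, with 548 and 319 counts. It also overlaps Gm43658 on that strand over 4176 bases, with 60 and 61 counts.

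The accessory loop, bZIP and bHLH factors and ROR receptors that adjoin the core, leaned toward replicate 2 under TMM scaling, though not under the spike-ins. Of 10 tested genes 7 were higher there by TMM, the median log2 ratio was 0.48 (-0.41 by the spike-ins), and 1 was called in each direction. Tef, a PAR bZIP activator, was at 18.6 and 26.2 TPM (1.71-fold) and Dbp, its relative, at 37.7 and 33.7 TPM (1.27-fold higher in replicate 2 by scaled counts). Nfil3, the bZIP repressor that competes with them, stood at 25.1 and 2.00 TPM, 9.30-fold higher in replicate 1 (7.89 to 11.1). Arntl2, an Arntl paralog, was 2.70-fold higher in replicate 2 (1.60 to 4.81) on 21 and 47 counts, an interval that reaches below 2-fold. No wider clock gene was called toward replicate 2 in the second transcript file, with a mean CPM of at least 5, or by the spike-ins. Ciart, a repressor of the CLOCK pair, was 1.98-fold higher in replicate 2 by TMM scaling (1.24 to 3.25), on only 30 and 49 counts. Its deposited TPM was 0.98 and 0.89, and the spike-in shift takes away most of that lead. Rora was at 17.1 and 15.5 TPM and Bhlhe40, an E-box repressor, at 35.8 and 20.9 TPM (1.43-fold higher in replicate 1).

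The proteins that modify clock factors were mostly close between the libraries, with 2 of 16 called, both higher in replicate 1. Usp2, a deubiquitinase known to be rhythmic, was at 22.7 and 4.57 TPM, 3.74-fold apart (3.36 to 4.17), and Siah2, a ubiquitin ligase, at 9.08 and 3.00 TPM, 2.33-fold (2.03 to 2.69). The casein kinases that phosphorylate PER were nearer, Csnk1d at 38.5 and 24.3 TPM (1.24-fold) and Csnk1a1 at 74.8 and 48.6 TPM (1.15-fold). Huwe1 and Usp7, at 1.02-fold and 1.21-fold, and the kinase gene Prkaa2, at 1.24-fold toward replicate 2 by TMM scaling only, completed the named genes. None of the 16 coregulators was called, the widest being Sirt1, a deacetylase, at 1.69-fold higher in replicate 1 and Cipc, a CLOCK-binding repressor, at 1.46-fold higher in replicate 2 by TMM scaling only.

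Of 10 clock-controlled targets 1 was called. Alas1, the first enzyme of heme synthesis, was at 952 and 184 TPM, 3.89-fold higher in replicate 1 (3.79 to 3.99). Noct, a rhythmic NADP(H) phosphatase, and Ppard, a fatty acid receptor, were each 1.90-fold higher in replicate 1, and Lonrf3 was at 2.42 and 1.16 TPM. Por, Tspan4 and Nampt were within 1.26-fold. The 4 lists, of 10, 16, 16 and 10 tested genes, together had 5 genes called, 4 of them higher in replicate 1. Of all tested genes 6.85% were called, 1.74% higher in replicate 1 and 5.12% higher in replicate 2. Under spike-in scaling 25 genes of the 4 lists were called, all higher in replicate 1, and the median of the targets was -1.26 in place of -0.37.

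**Figure D4:**
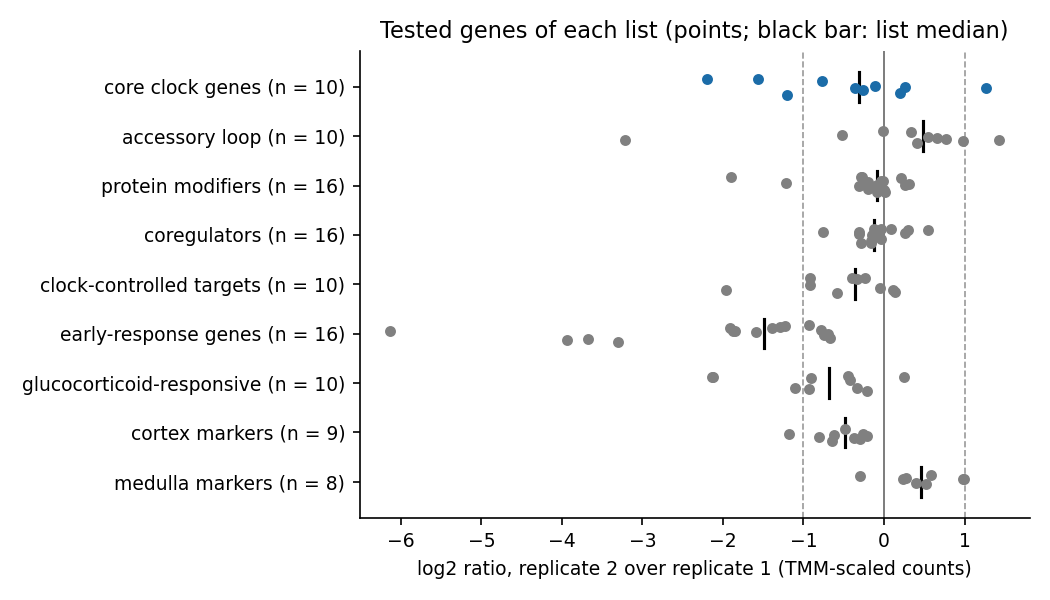
Log2 ratio of TMM-scaled counts, replicate 2 over replicate 1, for the tested genes of each list (points, with jitter only along the vertical), the list median as a black bar and 2-fold marked by dashed lines. Core clock genes spread from -2.20 (Per1) to 1.26 (Per3), and early-response genes all lie below 0.

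Early-response genes were higher in replicate 1, as 7 of the 10 members were by TMM scaling. Of all tested genes, 51.1% were higher in replicate 2 by that scaling. The early-response list holds cAMP-responsive genes such as Crem and Sik1 beside Fos, Jun and Egr1, and no inducing signal was tested. All 16 tested genes of that list were higher in replicate 1 and 11 were called, beside 1.74% of all tested genes called in that direction. The median log2 ratio of the list was -1.49. Nr4a1, an orphan receptor induced by ACTH, was at 350 and 4.09 TPM, and Crem, a cAMP-responsive bZIP gene, at 138 and 34.4 TPM, 3.77-fold apart (3.52 to 4.04). Sik1, a kinase induced by cAMP, was 12.8-fold higher in replicate 1, Nr4a2 15.3-fold and Fosb 9.91-fold, while Fosl2 and Jun reached 1.72-fold and 1.60-fold. This list ranges widely, from 1.60-fold for Jun to 70.1-fold for Nr4a1. Per1, at 4.61-fold, Per2, at 2.95-fold, Npas2, at 2.30-fold, and Arntl, at 1.71-fold, lie within that range. Cry2, at 1.28-fold, Clock, at 1.20-fold, and Cry1, at 1.08-fold, lie below it. Per3, Nr1d1 and Nr1d2 were higher in replicate 2 by TMM scaling. So wide a range takes in many genes, since 3.06% of all tested genes lay as far as Arntl in its direction. The part of this list in the member ratios was not tested.

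Of 10 glucocorticoid-responsive genes 9 were higher in replicate 1 and 3 were called, beside 1.74% of all tested genes called in that direction. The median log2 ratio of the list was -0.68. Ddit4, a stress-induced inhibitor of mTORC1, was 4.40-fold higher in replicate 1 (3.91 to 4.98), Errfi1, a feedback inhibitor of EGFR, 4.35-fold and Tsc22d3, the glucocorticoid-induced leucine zipper, 2.15-fold. Dusp1, which the early-response list also holds, was 1.91-fold apart. Mt2, a metallothionein, and Sgk1, a kinase, were 1.37-fold and 1.34-fold higher in replicate 1. The metallothionein Mt1 was the exception, 1.19-fold higher in replicate 2 by TMM scaling only.

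Markers of tissue makeup moved with the libraries too. All 9 cortex markers were lower in replicate 2 (median log2 ratio -0.48), led in level by Star at 5580 and 2793 TPM, and 7 of 8 medulla markers were higher there by TMM scaling (median 0.46, smaller than the spike-in shift), led by Chgb at 484 and 717 TPM. All 9 tested pancreas markers and all 6 liver markers were called higher in replicate 2. Erythroid markers were lower there in 5 of 5 (median -0.83) and macrophage markers in 5 of 5 (-0.21), while fat markers had a median of 0.31, also smaller than that shift, and endothelial markers -0.08. The 9 kidney, muscle and lymphocyte markers summed to 0.51 and 0.69 TPM. With genes up 32-fold or more in replicate 2 removed before scaling, the same 4 members were called and Per3 stayed between 1.20 and 1.31 on the log2 scale under every scaling other than the spike-ins. The part of tissue makeup in the member ratios was not tested.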

How the data were processed

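Total RNA was purified with a column kit and made into directional, ribosome-depleted libraries from 300 ng with ERCC spike-ins, per the labels' protocols. The labels conflict on the animals, since the biosample descriptions name 2 and the library descriptions 1, so the spread between the 2 libraries may be technical in part. The authors deposited, per the file headers, expected counts and TPM per gene and per transcript from a transcriptome alignment (mm10, GENCODE M21), each transcript's percent of its gene's TPM, and a second transcript file with estimated counts and TPM made from the reads. Which programs made these files is not given in the sources used here.

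Entries naming no gene (spike-ins, tRNA, phiX) were left out of library sizes; spike-ins took 0.843% and 1.50% of counts. Counts were scaled by TMM (edgeR 4.0.16, R 4.3.3; factors 1.02 and 0.982) over the 14780 genes whose mean CPM reached 1, and 0.5 was added for log2 ratios. Transcript shares were recomputed from TPM and lay within 0.579 percentage points of the deposited percent. Exact Clopper-Pearson 95% intervals on the ratio of 2 rounded counts cover counting error only, since reads are not independent molecules. DESeq2 1.42.0 gave alternative size factors. The ratio script was tested on simulated data. Promoter windows came from RefSeq (GRCm38.p6). Tables and figures were made in Python 3.11.15 (pandas 2.3.3, numpy 2.4.6), intervals with scipy 1.17.1 and plots with matplotlib 3.10.9.

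The members and lists were chosen with earlier results of these data known. All members are named, with up to 4 genes of each other clock or response list by level and up to 4 by ratio, and up to 2 of each marker list. With 2 libraries there is 1 ratio per gene, so no gene was named for a pattern like a member's.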

Additional observations from a re-analysis of the deposited data

How the results depend on the processing

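No paired analysis was possible because the 2 libraries form 1 group. The same 4 members were called under DESeq2 size factors, total counts, nuclear protein-coding genes only, scaling after removal of genes up 32-fold or more in replicate 2, the second transcript file, posterior mean counts, no filter and a pseudocount of 2. With a mean CPM of at least 5, 3 members were called, since Npas2 no longer passed the filter, and at 1.5-fold 5 were called. Spike-in scaling gave 7 called members, 5518 called genes (5281 higher in replicate 1 and 237 in replicate 2) and 25 called genes of the wider clock lists, against 4, 1013 (257 and 756) and 5. Fewer genes were called with a mean CPM of at least 5 (348, 153 and 195 by direction) and more with no filter (7726, 2464 and 5262) or at 1.5-fold (2558, with 11 of the wider clock lists). The second transcript file called 264 genes higher in replicate 1 and 1082 in replicate 2. In that file the mean Per1 to Per2 ratio was 1.00 against 1.47, Cry1 to Cry2 0.373 against 0.347 and Nr1d1 to Nr1d2 1.72 against 1.61. Mean levels there were over 1.5 times the gene table's for every member except Per1 (31.2 against 26.7 TPM). Posterior mean TPM gave 0.408 for Cry1 to Cry2. With only the lowest-numbered, full-length transcript of each PER gene, chosen after seeing the data, Per1 to Per2 was 0.832 (1.02 and 0.64 in replicates 1 and 2). The cause of these shifts was not tested. Depth limits Npas2 most.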
